A study of Mus musculus with 6 samples.

Results

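Dpy30, Ash2l, Wdr5 and Rbbp5 encode the 4 shared subunits of the SET1/MLL complexes, a core named WRAD after their initials. They were taken by symbol from the table of 38926 genes, and all 4 were among the 13646 genes tested. RNA was sequenced from hematopoietic stem cells (HSCs) that had been sorted by surface markers from the fetal liver of mouse embryos at stage E14.5. All 6 samples carried Vav-Cre, a Cre recombinase transgene whose Vav1 control elements are active in blood-forming cells and in part of the endothelium. The 3 control samples had the genotype Vav-Cre; Dpy30F/+, with 1 loxP-flanked (F) and 1 intact Dpy30 allele, and the 3 knockout samples had Vav-Cre; Dpy30F/-, with 1 flanked and 1 deleted allele. Each of 3 litters gave 1 sample of each genotype, and samples are named here by litter. Controls also lose their flanked allele wherever Cre acts, which leaves 1 working allele in those cells. The levels below are therefore not set against controls known to be fully intact. The share of control cells that had lost the flanked allele was not measured here. The labels do not say which exons the flanked allele loses, nor how many embryos a sample pooled.

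SET1/MLL complexes put methyl groups on lysine 4 of histone H3, a mark of active promoters and enhancers. One of 6 methyltransferase subunits supplies the catalytic SET domain and is nearly inactive until Wdr5, Rbbp5 and Ash2l assemble on it. Dpy30 binds the complex through Ash2l and raises its activity. In blood formation the best known enzyme of the family is Kmt2a (MLL1), which is rearranged in human leukemias and needed for HSC maintenance.

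Gene counts summed to between 31897737 and 43394700 per library, and mitochondrial genes took 49.2% to 67.7% of them. Marker genes set 2 libraries apart. The 11 HSC markers (such as Kit, Hlf and Mecom) all had counts, and their summed level in counts per 1e+06 (CPM) ran from 573 to 621 over the controls. In knockouts 1 to 3 it was 687, 802 and 230.1 CPM, so that knockout 3 was low in HSC markers. The 5 endothelial markers (Cdh5, Kdr, Stab2, Lyve1 and Emcn) were abundant, at 1033 to 1657 CPM in controls, 1524 and 1536 CPM in knockouts 1 and 3, and 105 CPM in knockout 2. Stab2 and Lyve1, genes of the liver's sinusoidal endothelium, alone made up 24.6 and 28.9 CPM in knockout 2, against 317 to 727 CPM in the other libraries. The 8 macrophage markers summed to 83.8 to 105 CPM over the controls, and to 280.4, 202 and 628 CPM in knockouts 1 to 3. All 8 had a positive log2 fold change, and 3 had every knockout above every control, as had 6.39% of the genes tested. Erythroid markers (7 genes, 319 to 1107 CPM), megakaryocyte markers (5 genes, 47.4 to 88.0 CPM) and granulocyte and mast cell markers (5 genes, 29.7 to 293 CPM) were present in every library. Hepatocyte markers (8 genes, 5.59 to 25.7 CPM), stromal markers (6 genes, 0.604 to 20.7 CPM) and lymphoid markers (6 genes, at most 2.73 CPM, Cd3e and Dntt at 0 in all libraries) were low throughout. For this reason the fold changes of the core genes, the Dpy30 level left and its ratio to the partners are also given without knockout 2 and without knockout 3. So is the median of the other complex genes. The remaining results below rest on all 6 libraries. In bulk RNA, fewer cells of a type and less RNA per cell cannot be told apart.

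Dpy30 transcript was lower in every knockout than in any control, and it was absent from none. The gene (ENSMUSG00000024067.14) lies on the minus strand of chromosome 17 between 74299474 and 74323944 (GRCm38). Its annotated exons add up to only 1146 bases. It has 6 annotated transcripts, all protein-coding, of which 5 start within 261 bases of each other and 1 starts 7481 bases further upstream. With TMM scaling (trimmed mean of M values), controls 1 to 3 had 24.6, 24.2 and 31.6 CPM of Dpy30, and knockouts 1 to 3 had 7.93, 5.95 and 13.7 CPM. The highest knockout was well below the lowest control. Such a separation, all knockouts below all controls, was shown by 7.74% of the genes tested.

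Set against the control of its own litter, the knockout kept 32.2% of Dpy30 in litter 1 (95% interval 28.1 to 36.9), 24.6% in litter 2 (21.1 to 28.6) and 43.1% in litter 3 (38.8 to 47.9). These exact binomial intervals cover counting error only. Litter 3 kept the most and litter 2 the least. The spread of Dpy30 among knockouts (SD of log2 CPM 0.60) was below the median of 0.75 for the 4401 genes within 2-fold of its mean level. The mean over litters was 33.3% ± 9.31 (SD, n = 3). The controls averaged 26.8 ± 4.196 CPM and the knockouts 9.18 ± 3.999 CPM (SD, 3 libraries each). A two-sided exact permutation test of these means gave p = 0.1, the smallest value that 3 against 3 can give. The ratio of group means, 34.2%, became 40.3% without knockout 2, 26.1% without knockout 3 and 29.4% without both.

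In the fit across all genes, Dpy30 had a log2 fold change (knockout over control) of -1.55 with a standard error of 0.464 (95% interval -2.61 to -0.48). The log2 fold change of Dpy30 was -1.31 without knockout 2 and -1.94 without knockout 3. By p-value with all 6 libraries Dpy30 stood at place 202 of 13646 genes. The edgeR quasi-likelihood test of all 6 libraries gave an unadjusted p of 0.0102 and a Benjamini-Hochberg adjusted p of 0.672, so Dpy30 was not called. That fit called 0 genes, or 0% of those tested, at an adjusted p under 0.05. At an unadjusted p under 0.05 there were 888 (6.51%), of which 306 (2.24%) were lower in the knockout, as Dpy30 was. With litter as a block, edgeR again called 0 genes (619, or 4.54%, at an unadjusted p under 0.05), and the unadjusted p of Dpy30 was 0.0152. The limma-voom fit also called 0 genes (1008 at an unadjusted p under 0.05). DESeq2 called 139 genes, 1.08% of the 12862 to which it gave an adjusted p, and 35 of them (0.272%) were lower in the knockout. Dpy30 was not among them (DESeq2 adjusted p = 0.126). Within litters 1 to 3 the log2 CPM of Dpy30 differed, knockout minus control, by -1.63, -2.01 and -1.21, where 3.19% of genes were lower by at least 1 in every litter.

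**Figure D1:**
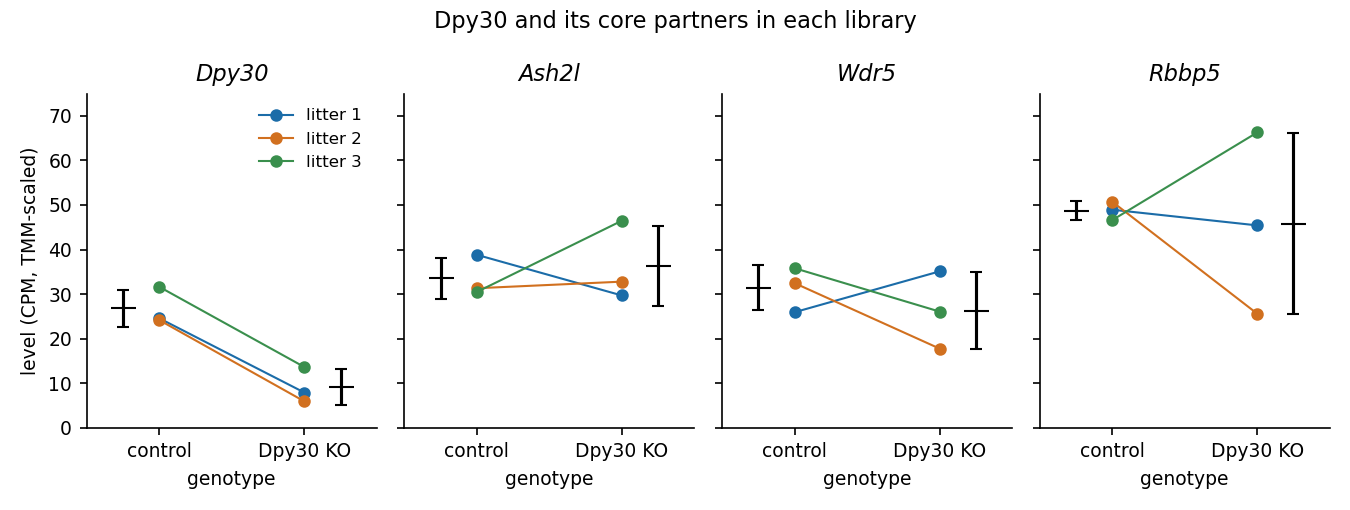
Level of each core gene (CPM, TMM-scaled) in the control and knockout library of each litter, joined by a line, with the group mean and SD (n = 3) in black beside the points. Dpy30 lies between 5.95 and 13.7 CPM in knockouts and between 24.2 and 31.6 CPM in controls, and the groups overlap for Ash2l, Wdr5 and Rbbp5.

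The marker sums beside the residual were these. Knockout 2, with the least Dpy30 (5.95 CPM), had the least of the endothelial markers of all 6 libraries (105 CPM) and the least of the macrophage markers among knockouts (202 CPM, above all controls). Knockout 3, with the most Dpy30 (13.7 CPM), had 1536 CPM of endothelial markers, the most of the macrophage markers (628 CPM) and the least of the HSC markers (230.1 CPM). Knockout 1 had 7.93 CPM of Dpy30, with 1524 CPM of endothelial and 280.4 CPM of macrophage markers. Granulocyte and mast cell markers were at 59.1, 140.2 and 293 CPM and erythroid markers at 319, 509 and 1092 CPM in knockouts 1 to 3, both highest in knockout 3. Among controls, the library with the most Dpy30 (control 3, 31.6 CPM) had the lowest endothelial sum (1033 CPM) and the lowest HSC sum (573 CPM). It also had the highest sums of macrophage markers (105 CPM) and of granulocyte and mast cell markers (108.6 CPM) among controls. Its erythroid sum (999 CPM) lay between those of controls 1 and 2. The part of these cell types in the residual was not tested. Counts per gene also merge reads of deleted and remaining exons, so the residual cannot be divided between intact transcripts and shortened ones.

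**Figure D2:**
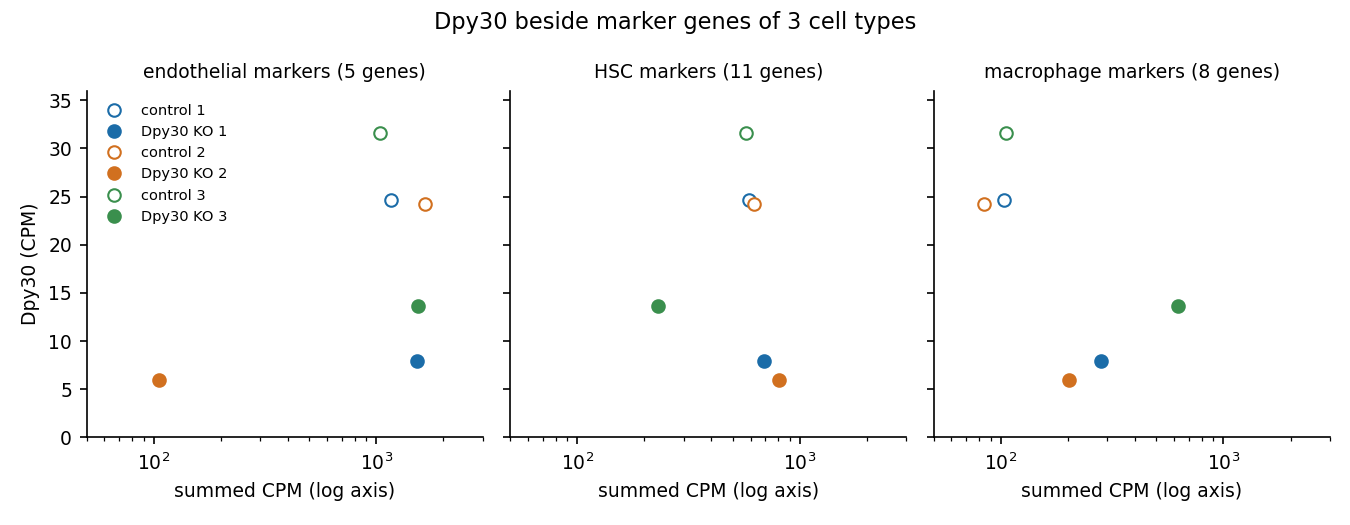
Dpy30 level (CPM) against the summed CPM of endothelial, HSC and macrophage markers (horizontal log axis), with open points for controls and filled points for knockouts, coloured by litter. Knockout 2 sits apart at 105 CPM of endothelial markers and knockout 3 at 230.1 CPM of HSC markers, and both remain below all controls in Dpy30.

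The regions before the transcription starts are shown because complexes of this family are guided to unmethylated CG pairs by the CXXC domains of Cxxc1, Kmt2a and Kmt2b, and the core genes can be read for the same feature. RefSeq windows on GRCm38.p6 were matched for 3 of the 4 genes (Dpy30, Wdr5 and Rbbp5). The 250 bases before the start are printed 5′ to 3′ on the gene's strand, with each CG pair in capitals. They lie at chr17:74316434-74316683 (minus strand) for Dpy30, at chr2:27514897-27515146 (plus strand) for Wdr5 and at chr1:132477117-132477366 (plus strand) for Rbbp5. For Dpy30 the most upstream RefSeq start near the clustered transcript starts was used. The end of its window overlaps exon 1 of the annotated transcript Dpy30-206, at 74316345 to 74316463.
Dpy30: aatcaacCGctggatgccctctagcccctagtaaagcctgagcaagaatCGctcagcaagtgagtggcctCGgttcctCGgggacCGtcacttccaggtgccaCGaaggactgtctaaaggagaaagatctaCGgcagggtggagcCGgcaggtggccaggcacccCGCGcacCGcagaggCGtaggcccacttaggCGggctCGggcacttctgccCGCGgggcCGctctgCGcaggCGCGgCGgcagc
Wdr5: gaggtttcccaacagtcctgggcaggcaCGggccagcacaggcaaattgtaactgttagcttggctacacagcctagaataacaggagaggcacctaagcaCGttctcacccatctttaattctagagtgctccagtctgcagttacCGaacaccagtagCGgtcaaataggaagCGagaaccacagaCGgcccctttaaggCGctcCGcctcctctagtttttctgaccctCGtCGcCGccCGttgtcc
Rbbp5: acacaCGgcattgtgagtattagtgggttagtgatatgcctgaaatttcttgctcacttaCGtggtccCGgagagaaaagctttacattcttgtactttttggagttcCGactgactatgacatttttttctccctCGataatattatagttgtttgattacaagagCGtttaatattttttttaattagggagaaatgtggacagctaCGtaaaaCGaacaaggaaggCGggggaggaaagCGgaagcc

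The Dpy30 window holds 21 CG pairs and is 66.0% G and C. At least that many CG pairs were found in 16.35% of 32851 such windows over all genes, where the median was 6. Wdr5 has 12 pairs and Rbbp5 has 10, counts that 33.49% and 37.8% of all windows reach. The 3 windows are therefore richer in CG than the median window, Dpy30 the most so, and such a count says nothing of methylation or binding in these cells.

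The partners were read for whether the rest of the core was raised or lowered when Dpy30 was short. None of the 3 was called, but the lack of a call cannot answer this, since edgeR called 0% of the genes tested. None separated the genotypes in either direction (14.1% of tested genes did). Each was higher in the knockout in 1 or 2 litters and lower in the rest. Ash2l (chromosome 8, 25815996 to 25847694, minus strand) encodes the subunit that holds Dpy30. Controls 1 to 3 had 38.8, 31.3 and 30.5 CPM of Ash2l, and knockouts 1 to 3 had 29.7, 32.8 and 46.5 CPM. Knockout 1 was the lowest and knockout 3 the highest of all 6 libraries, so the genotypes overlapped fully. Its log2 fold change of 0.11 had an SE of 0.318 and an edgeR adjusted p of 0.974. The 95% interval runs from 0.652-fold to 1.799-fold of control.

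Wdr5 (chromosome 2, 27515157 to 27536535, plus strand) encodes the WD-repeat subunit that grips the Win motif of the methyltransferases and also serves in other chromatin complexes. Controls 1 to 3 stood at 25.9, 32.5 and 35.8 CPM and knockouts 1 to 3 at 35.1, 17.8 and 26.1 CPM. The knockout was above its control in litter 1 and below it in litters 2 and 3. Its log2 fold change of -0.26 (SE 0.370) had an edgeR adjusted p of 0.940 and an interval from 0.464-fold to 1.51-fold.

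Rbbp5 (chromosome 1, 132477365 to 132505659, plus strand) encodes the subunit that joins Ash2l to the catalytic domain. Its controls were close together, at 48.9, 50.7 and 46.6 CPM, while knockouts 1 to 3 were at 45.4, 25.6 and 66.3 CPM. Knockout 2 was the lowest and knockout 3 the highest of the 6 libraries. Its log2 fold change of -0.09 (SE 0.366) had an edgeR adjusted p of 0.983 and an interval from 0.523-fold to 1.68-fold. The upper bounds of all 3 partners thus stay below a rise of 2-fold in this TMM-scaled fit of all 6 libraries. Smaller rises remain inside the intervals, and so do falls, down to 0.464-fold of control for Wdr5. Intervals for other scalings or omissions are not given here, and with library size only the Ash2l log2 fold change was 0.33. The exact permutation test of mean CPM, two-sided, n = 3 each, gave p = 0.7 for Ash2l, 0.5 for Wdr5 and 0.7 for Rbbp5.

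Leaving out a knockout library turned the sign of partner values. Without knockout 2 the Rbbp5 log2 fold change was 0.20 (edgeR adjusted p = 0.875), and without knockout 3 that of Ash2l was -0.09 (edgeR adjusted p = 0.976). Without knockout 3 the value for Rbbp5 was -0.44 (edgeR adjusted p = 0.802), and without knockout 2 that for Wdr5 was -0.04 (edgeR adjusted p = 0.986). Ash2l was at 0.18 without knockout 2, and Wdr5 at -0.23 without knockout 3. Both knockouts were also left out together, an omission chosen after seeing the data that leaves 1 knockout library. Ash2l then stood at -0.18, Wdr5 at 0.15, Rbbp5 at -0.11 and Dpy30 at -1.76. Wdr5 stayed negative in each omission of a single library, from -0.52 to -0.04. It was called in none (edgeR), but neither was any other gene.

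**Figure D3:**
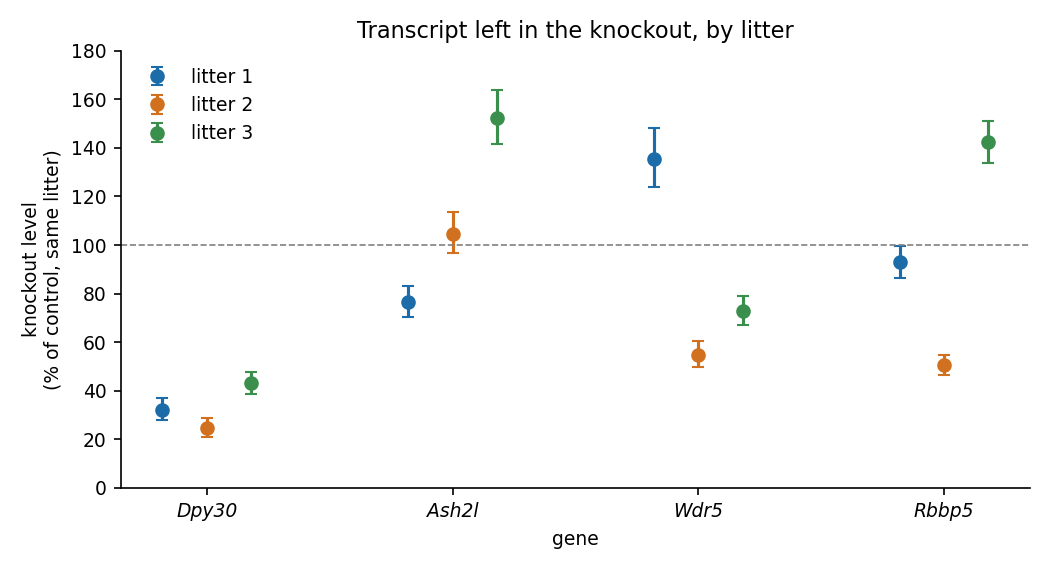
Knockout level of each core gene as a percent of the control of the same litter, with 95% exact binomial intervals for counting error only (dashed line, 100%). Dpy30 lies at 24.6% to 43.1% in all 3 litters, while Ash2l runs from 76.5% to 152%, Wdr5 from 54.7% to 135% and Rbbp5 from 50.5% to 142%.

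The spread of the partners was larger among knockouts than among controls. As SD of log2 CPM over 3 libraries, Rbbp5 had 0.06 in controls and 0.69 in knockouts, Ash2l had 0.19 and 0.34, and Wdr5 had 0.24 and 0.49. Dpy30 itself had 0.22 and 0.60. For scale, the median SD of the 3322 genes within 2-fold of the mean CPM of Rbbp5 was 0.29 in controls and 0.53 in knockouts. In controls only 3.25% of those genes had a smaller SD than Rbbp5, and in knockouts 65.4% did. Genes of this level were thus more variable among knockouts in general.

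Ratios within a library do not depend on how libraries are scaled. The log2 CPM of Dpy30 minus the mean log2 CPM of its 3 partners gave -0.58, -0.62 and -0.23 for controls 1 to 3, and -2.18, -2.04 and -1.66 for knockouts 1 to 3. Every knockout was again below every control, as for the Dpy30 level alone, a separation shown by 7.74% of genes. Controls averaged -0.47 ± 0.22 and knockouts -1.96 ± 0.27 (SD, 3 libraries each), a difference of -1.48. Dpy30 thus stood at 0.357 of its control ratio to the partners (two-sided exact permutation p = 0.1, the smallest possible). The difference was -1.61, -1.42 and -1.43 in litters 1 to 3. This range was narrower than that of Dpy30 alone, as was the range against Rbbp5 alone (-1.52, -1.03 and -1.72). Against Ash2l alone (-1.24, -2.08 and -1.82) and Wdr5 alone (-2.06, -1.145 and -0.75) the range was wider. The difference of means from all 3 partners was -1.44 without knockout 2, -1.64 without knockout 3 and -1.71 without both.

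Against single partners the mean difference was -1.71 for Ash2l, -1.32 for Wdr5 and -1.42 for Rbbp5, and in each case all knockouts lay below all controls. These ratios share the Dpy30 values and so are not independent of its separation by level. The share of all genes with such a separation in their ratio to the partners was not measured. The ratios among the partners showed no such order. Ash2l over Rbbp5 differed by 0.29 between knockout and control means (exact permutation p = 0.6), Wdr5 over Rbbp5 by -0.10 (exact p = 0.9) and Wdr5 over Ash2l by -0.39 (exact p = 0.4; n = 3 each for all 3), with overlapping groups. In litter 2 Ash2l gained on Rbbp5 by 1.05 on the log2 scale, and in litter 3 the change of Wdr5 over Rbbp5 was -0.96, so partner proportions also varied within litters.

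**Figure D4:**
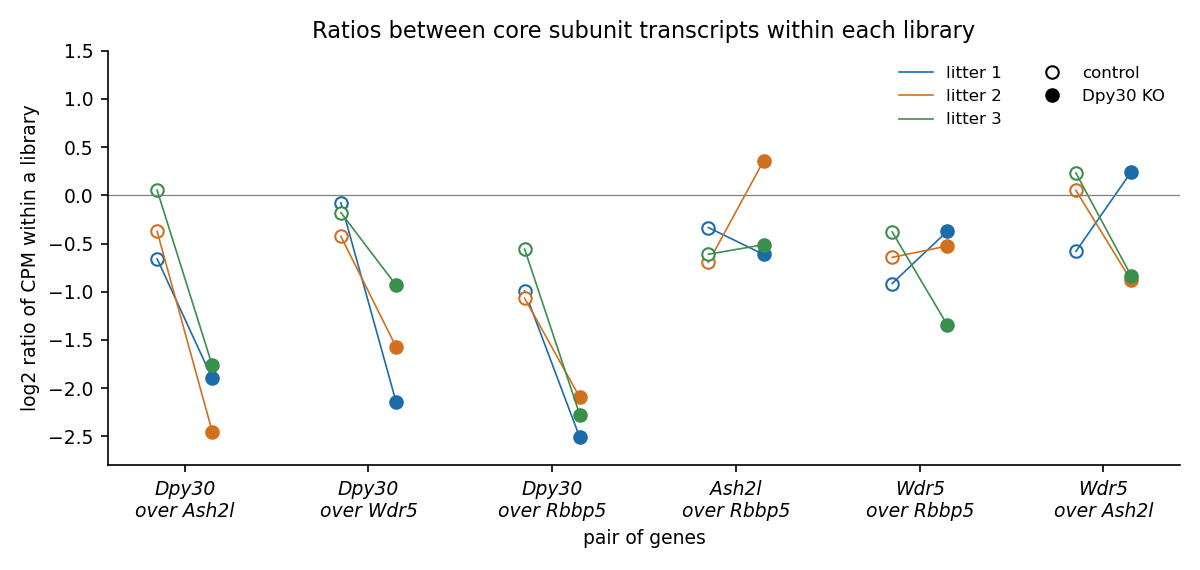
Log2 ratio of CPM between pairs of core genes in each library, with open points for controls and filled points for knockouts joined by litter. The 3 ratios with Dpy30 on top drop in every litter, and the 3 ratios among Ash2l, Wdr5 and Rbbp5 move up in some litters and down in others.

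Levels of different genes were compared as CPM per kilobase of annotated exon. In controls Dpy30 had the highest level of 10 genes, the core and the 6 methyltransferases, at 23.4 ± 3.66 CPM per kilobase (SD, n = 3), above 94.4% of the tested genes with a known length. Rbbp5 was at 12.4 ± 0.529, Wdr5 at 8.73 ± 1.40 and Ash2l at 3.74 ± 0.511 in the same unit (SD, n = 3 each). The ranges of Dpy30 and of the next gene, Kmt2d (15.3 ± 2.41), did not overlap. Rbbp5 overlapped with Kmt2a (13.6 ± 1.33) above it and not with Kmt2c (9.56 ± 1.49) below it, and Wdr5 overlapped with Kmt2c. Ash2l came last (place 10), its range overlapping with that of Setd1b (4.86 ± 1.24). In knockouts Dpy30 took place 5 of the 10, at 8.01 ± 3.49 CPM per kilobase (SD, n = 3). Its knockout range overlapped with those of Kmt2c above it and Wdr5 below it. The place of Ash2l depends on the length used, since its annotated exons add up to 8969 bases while its protein-coding transcripts of the basic set average 2462 bases. With the latter lengths, chosen after seeing the data, Ash2l took place 5 in controls, and Dpy30 still came first there. In knockouts those lengths put Dpy30 at place 6.

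No difference was called for the methyltransferases that the core serves. Of the 6 genes, 5 had a positive and 1 a negative log2 fold change, none was called and none reached an unadjusted p under 0.05 (edgeR). Among all 13646 genes tested, 6927 had a positive and 6719 a negative value. The same fit called 0% of them, and 6.51% reached an unadjusted p under 0.05. Kmt2a averaged 228 ± 22.2 CPM over the controls and 264 ± 30.8 CPM over the knockouts (SD, 3 libraries each), a log2 fold change of 0.21. Kmt2c and Kmt2d, which act mainly at enhancers, had 0.22 and 0.08. Setd1a and Setd1b, the SET1 enzymes that place much of the trimethyl mark at promoters, had 0.07 and 0.04, and Kmt2b had -0.08. For all 6 genes the knockouts overlapped with the controls, where 14.1% of tested genes had groups that did not overlap. Adjusted p-values were 0.897 or above (edgeR). The 95% intervals were wide, from 0.848-fold to 1.59-fold of control for Kmt2a and from 0.561-fold to 1.97-fold for Setd1a.

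Of 13 accessory subunits, 7 had a positive and 6 a negative log2 fold change, with none called and none at an unadjusted p under 0.05 (edgeR). That fit called 0% of all genes tested and had 6.51% at an unadjusted p under 0.05. The largest positive values were 0.75 for Bod1 (SE 0.838) and 0.64 for Hcfc2 (SE 0.626), a relative of the host cell factor Hcfc1. The largest negative values were -0.84 for Pagr1a (SE 1.17), a partner of the Kmt2c and Kmt2d complexes that had only 8 to 58 counts a library, and -0.60 for Tasp1 (SE 0.728), the protease that cleaves Kmt2a and Kmt2b. The 95% interval of each of these 4 values includes 0. Over methyltransferases and accessory subunits together the median log2 fold change was 0.08 for 19 genes, against 0.01 for all 13646 genes. The 19-gene median was 0.17 without knockout 1, 0.16 without knockout 2 and 0.0080 without knockout 3. With upper-quartile scaling it was -0.05, and with library size only it was 0.29, while the median of all genes moved to -0.10 and 0.23.

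**Figure D5:**
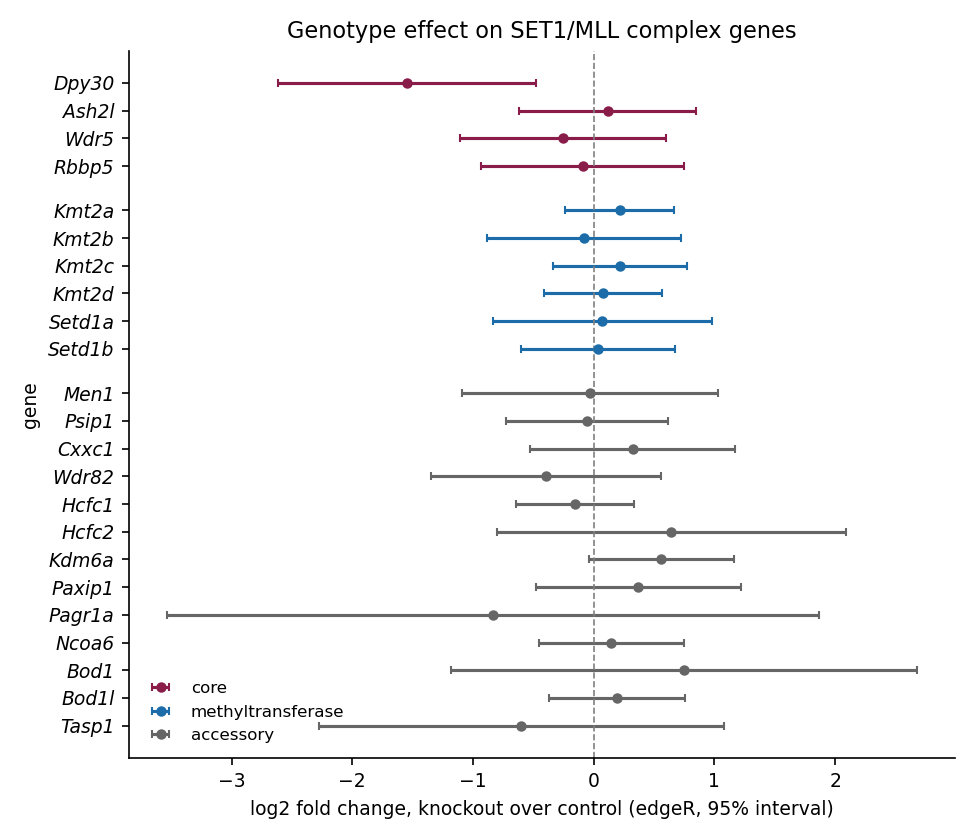
Log2 fold change, knockout over control, of the 4 core genes, 6 methyltransferases and 13 accessory subunits with 95% intervals (edgeR, 3 samples a group). The interval of Dpy30, from -2.61 to -0.48, lies below 0, and those of the other 22 genes include 0.

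Genes related to core members by sequence were scarce. Wdr5b, a close relative of Wdr5, had 5.73, 0.588 and 2.54 CPM in controls 1 to 3, against 1.21, 0.992 and 1.60 CPM in the knockouts (log2 fold change -1.22, SE 1.15, edgeR adjusted p = 0.901). All knockouts were within the control range. How reads matching both Wdr5 and Wdr5b were counted is not given in the sources used here, so both levels carry that uncertainty. Dydc1, Dydc2 and Nme5, which carry a motif like that of Dpy30, had 0 counts in every library, which allows at most 0.0680 to 0.104 CPM, the level of 3 counts. Ak7, another such gene, had 7 counts in control 1, 22 in knockout 1 and 0 elsewhere.

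Neighbours of Dpy30 were read because the altered allele lies among them. Memo1, which encodes a mediator of cell motility, lies 3952 bases beyond the 3′ end of Dpy30 on the same strand. Its controls stood at 28.9, 34.6 and 27.5 CPM, and its knockouts at 21.5, 13.7 and 10.9 CPM. All knockouts were below all controls, at 50.7% of the control mean (log2 fold change -0.98, SE 0.399, unadjusted p = 0.0391, edgeR adjusted p = 0.754), a separation shown by 7.74% of genes. With litter as a block, the unadjusted p of Memo1 was 0.0601 (edgeR).

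On the other side of Dpy30, 15042 bases away, Spast encodes the microtubule-severing enzyme spastin. Its controls had 53.9, 64.5 and 50.6 CPM and its knockouts 47.5, 54.3 and 31.6 CPM (log2 fold change -0.34, edgeR adjusted p = 0.887), with overlapping groups. Further out, the zinc transporter gene Slc30a6 had -1.13, Yipf4 had 0.79 and Birc6, an inhibitor of apoptosis, had -0.01 on the log2 scale, none of them called (edgeR). Slc30a6 had 7 counts in knockout 3, against 130 to 334 in the other 5 libraries. Nlrc4 had 0 to 25 counts and was not tested.

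The genes whose profile over the 6 libraries was closest to that of Dpy30 were found by the root mean square difference of centred log2 CPM, among 6760 genes with a mean of at least 10 CPM. They were Trappc10, of a vesicle-tethering complex, at 0.211, Tfr2, the second transferrin receptor gene, at 0.232, Nxpe2 at 0.305, Nudt9, an ADP-ribose hydrolase gene, at 0.316, and Adk, the adenosine kinase gene, at 0.325. The median over all compared genes was 1.03. Controls 1 to 3 had 31.2, 33.1 and 50.1 CPM of Trappc10, and knockouts 1 to 3 had 13.5, 8.63 and 14.9 CPM. In both genes the highest control was that of litter 3 and the lowest knockout that of litter 2. The 5 genes were picked for profiles like that of Dpy30. Their genotype differences and order of libraries follow in part from that choice and are not independent results. None of the 5 was called by edgeR, with adjusted p from 0.622 to 0.849. DESeq2 called Trappc10 (adjusted p = 0.0274) and Nudt9 (adjusted p = 0.0331), where it called 1.08% of all genes given an adjusted p. The partners were further from Dpy30, at 0.738 for Rbbp5, 0.754 for Wdr5 and 0.905 for Ash2l, and 8.36%, 9.70% and 29.7% of the compared genes came closer.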

How the data were processed

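Raw counts per gene symbol were deposited by the authors for each of 6 libraries, unnormalized. The submitters' processing notes name CASAVA 1.8.4, TopHat2, Picard 1.126, HTSeq 0.6.0, DESeq 3.0, bedtools 2.17.0 and the build mm10, without roles. The 5 tallies of reads given to no gene (41.0% to 51.0% of the rows' sum) were left out. The annotation and strandedness are not given in the sources used here, nor is any use of molecular tags. The exact binomial intervals per litter cover counting error only, while the edgeR intervals also include variation between libraries. Positions and lengths are those of GENCODE release M21 (GRCm38), with lengths for 94.5% of the genes tested.

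Counts were filtered (filterByExpr), TMM-scaled and tested with edgeR 4.0.16 (glmQLFit, glmQLFTest, R 4.3.3) between genotypes, with Benjamini-Hochberg adjustment over all genes and a threshold of 0.05. Each SE was derived from its F statistic (absolute log2 fold change divided by the root of F). Log2 CPM used a prior count of 2. DESeq2 1.42.0, limma-voom 3.58.1, other scalings and filters, a litter block and single-library omissions were alternatives. The labels pair samples by litter; deviations of litter mates from their group means correlated at -0.0224, -0.0752 and 0.00336 over 13646 genes in litters 1 to 3.

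The core genes, gene lists and tests were chosen with earlier results of these data known. Named are the 4 core genes, all methyltransferases, the 2 accessory subunits with the largest positive and the 2 with the largest negative value, the detected relatives and neighbours, and the 5 nearest profiles (predicted genes and RIKEN clones left out). Adgre1 was matched by its older symbol. One marker gene of the HSC list is not reported here and was left out of its sum.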

Additional observations from a re-analysis of the deposited data

How the results depend on the processing

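Under the 16 alternatives, none of the 4 core genes and none of the 19 other complex genes was called. However, the other scalings, limma-voom, the litter block and each omission of a single library called 0 of all genes tested. The lack of a call there does not set the complex genes apart from any other gene. DESeq2 called 139 genes, 1.08% of those to which it gave an adjusted p, and none of the complex genes was among them. With litter as a replicate block, log2 fold changes were -1.62 for Dpy30 (edgeR adjusted p = 0.953), 0.10 for Ash2l, -0.30 for Wdr5 and -0.19 for Rbbp5. Neither this fit nor the one without the block called any gene. The Dpy30 difference from its partners was the same when taken within litters (-1.48, exact sign-flip p = 0.25, the smallest that 3 pairs allow). Signs turned for Ash2l with upper-quartile scaling (-0.022) and without knockout 3 (-0.090), for Rbbp5 with scaling by library size only (0.12) and without knockout 2 (0.20), and, without both knockouts 2 and 3, for Ash2l (-0.18) and Wdr5 (0.15); the last omission was chosen after seeing the data. The median of all genes was 0.01 in the report, -0.10 with upper-quartile scaling and 0.23 with library size only. Leaving out 1 library at a time gave ranges of -1.94 to -1.31 for Dpy30, -0.090 to 0.24 for Ash2l, -0.52 to -0.04 for Wdr5, -0.44 to 0.20 for Rbbp5 and 26.1% to 40.3% for the Dpy30 level left. Over all alternatives the adjusted p of Dpy30 ran from 0.126 (DESeq2) to 1.00. Unfiltered genes, or at least 10 counts in every library, gave 1 call over all genes in place of 0. How small a partner difference 3 libraries a group could show was not measured.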
